A study of Mus musculus with 11 samples.

Results

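The transcripts described here encode the SNARE proteins that fuse synaptic vesicles with the plasma membrane and the complexins that bind them. The 7 genes were taken by name, as Stx1a, Snap25, Vamp1, Vamp2, Cplx1, Cplx2 and Cplx3, from a table of 17118 genes, and all 7 were present and passed the filter on low counts. Libraries came from hippocampal punches of 0.2 mm taken from 11 female C57/BL6 mice (genotype label C57/BL6J). The mice were 12 weeks old at the first treatment and carry a 1-month label. In the AC-T group (mice 501, 502, 503, 600 and 602) 8 weekly intraperitoneal injections were given, 4 of doxorubicin at 2 mg/kg with cyclophosphamide at 50 mg/kg, followed by 4 of paclitaxel at 5 mg/kg. The saline group (mice 201, 202, 203, 300, 301 and 302) received 0.9% sodium chloride on the same schedule. Doxorubicin is an anthracycline, cyclophosphamide an alkylating agent and paclitaxel a microtubule stabiliser, and the combination is used against breast cancer. Each mouse gave 1 library, so the spread between libraries includes that between animals.

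A synaptic vesicle fuses when the SNARE on its own membrane, a synaptobrevin (VAMP), winds together with syntaxin 1 and SNAP-25 on the plasma membrane into a bundle of helices. Complexins are small soluble proteins that clip onto the assembled bundle, hold it ready, and take part in release triggered by calcium through synaptotagmin. Neurons choose between paralogues at each position, such as Vamp1 or Vamp2 and Cplx1 or Cplx2, so the balance between paralogues differs from one neuron type and brain region to another. Hippocampal excitatory neurons are known for Vamp2, Snap25 and Cplx2.

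Library totals were 23.4 to 32.1 M counts (M, mega), and the AC-T and saline means were 30.0 M and 28.0 M. Of the marker lists examined, those of CA1, CA2 and CA3 pyramidal neurons and of dentate granule neurons were above 0 throughout, and so were 15 of 16 markers of the thalamus and habenula, a neighbouring region (Gbx2 was listed at 0 in some libraries). Thalamic markers summed to 777 to 1135 CPM after AC-T and 1473 to 2241 CPM after saline (CPM, read counts scaled to a common library size with TMM factors), and 14 of 16 were lower after AC-T and 0 higher. Neocortical markers summed to 473 to 499 CPM after AC-T and 346 to 395 CPM after saline, and CA1 markers to 552 to 700 CPM after AC-T and 169.6 to 461.9 CPM after saline. Of the neocortical markers 3 of 12 were higher and 1 lower (Rorb), and of the CA1 markers 1 of 9 was higher. Of the other lists, GABAergic interneuron markers had 4 of 12 higher and 2 lower, astrocyte markers 3 of 8 lower, CA2 and CA3 markers 2 of 9 lower and endothelial markers 1 of 7 lower. In that order, 7, 4, 4 and 1 markers of these lists had an unadjusted p under 0.05. Dentate, oligodendrocyte, microglial and choroid plexus markers had 0 called in edgeR, and 1 of them, a dentate marker, had an unadjusted p under 0.05. The part of the lists other than the thalamic one in the results was not tested. Calb2 is on both the thalamic and the GABAergic interneuron list. All marker lists were chosen with earlier results of these data known. Xist, made in female cells from the silenced X, was at 13057 to 22963 counts in 10 libraries and at 0 in saline 300, which goes against its label, and the fold changes of the 7 members are given below with and without it. Mouse numbers begin with 5 or 6 in the AC-T group and with 2 or 3 in the saline group. Libraries that share this digit are called a series here, with its meaning not given in the labels, and no series holds both treatments.

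The promoters of Stx1a, Vamp1 and Cplx3 are shown because the transcript levels of these members passed the test between the groups. Windows were available for 5 of the 7 genes, from RefSeq on build GRCm38.p6, as 250 bases before to 50 bases after the annotated start. Capitals mark matches, on either strand, to the E-box CACGTG, the GC box GGGCGG, the cAMP response element TGACGTCA, the CCAAT box CCAAT or the TATA box TATAAA, none of which overlapped.
Stx1a promoter, chr5:135023232-135023531, plus strand: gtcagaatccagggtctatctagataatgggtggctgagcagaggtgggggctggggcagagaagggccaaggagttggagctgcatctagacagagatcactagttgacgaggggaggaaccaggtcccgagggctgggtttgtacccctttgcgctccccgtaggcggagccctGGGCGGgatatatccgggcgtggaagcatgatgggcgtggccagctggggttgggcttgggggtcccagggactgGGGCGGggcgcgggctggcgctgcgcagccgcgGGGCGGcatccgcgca
Vamp1 promoter, chr6:125215331-125215630, plus strand: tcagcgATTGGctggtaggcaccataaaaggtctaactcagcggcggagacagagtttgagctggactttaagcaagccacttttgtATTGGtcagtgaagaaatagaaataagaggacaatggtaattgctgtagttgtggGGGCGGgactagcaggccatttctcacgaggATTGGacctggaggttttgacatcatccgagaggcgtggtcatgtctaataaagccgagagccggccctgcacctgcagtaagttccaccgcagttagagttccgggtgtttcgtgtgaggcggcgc
Cplx3 promoter, chr9:57606232-57606531, minus strand: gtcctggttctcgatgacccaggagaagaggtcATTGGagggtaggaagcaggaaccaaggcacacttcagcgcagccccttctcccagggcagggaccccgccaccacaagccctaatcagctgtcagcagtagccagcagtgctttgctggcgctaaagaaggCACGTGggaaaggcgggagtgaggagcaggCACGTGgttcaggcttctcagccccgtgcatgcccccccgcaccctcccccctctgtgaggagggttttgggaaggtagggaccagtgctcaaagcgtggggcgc
The Stx1a window held 3 GC boxes, at 74 bases before and at 2 and 35 bases after the start, and none of the other motifs. The Vamp1 window held 1 GC box and 3 CCAAT boxes. In the Cplx3 window there were 2 E-boxes, 85 and 55 bases before the start, and 1 CCAAT box. Of 32817 windows of this length, 35.6% held a GC box, 37.4% a CCAAT box, 7.15% an E-box, 13.6% a TATA box and 1.79% a cAMP response element. G and C made up 66.3% of the Stx1a window, 51.7% of the Vamp1 window and 62.7% of the Cplx3 window, against a median of 52.7% over all windows. These are letter matches and not binding sites.

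Of the 7 transcripts, 3 rose after AC-T (Stx1a, Vamp2 and Cplx3), 1 fell (Vamp1) and 3 did not pass (Snap25, Cplx1 and Cplx2). Over all 15353 genes tested, 4.89% were called higher and 3.58% lower, 8.47% in all (edgeR quasi-likelihood F test, 2-sided, Benjamini-Hochberg adjusted p under 0.05). The 4 called members are 57.1% of the 7, and no test was made of that share. The members were chosen with earlier results of these data known, so neither this share nor the next can show an excess over all genes. All 7 had an unadjusted p under 0.05, which 24.9% of all genes reached. The median log2 fold change, AC-T over saline, was 0.24 over the 7 members and −0.0029 over all genes. The members called varied with the fit. They numbered 4 in limma-voom (8.69% of all genes called), 5 in DESeq2 (16.4%), which added Cplx2, and 2 in limma-voom with series as a random effect (1.91%), which left Stx1a and Cplx3. Without saline 300 they were Stx1a, Vamp1 and Cplx3 (5.45% of all genes called). Leaving out AC-T series 6 or saline series 2 left Stx1a and Cplx3 (2.63% and 3.54% of all genes), leaving out saline series 3 gave 5 members (7.76%), and leaving out AC-T series 5 gave 0 (1.99%). In that last fit 2 of the 7 had an unadjusted p under 0.05, as did 19.7% of all genes. In a punch of mixed tissue, fewer cells of a type and less RNA per cell cannot be told apart.

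**Figure D1:**
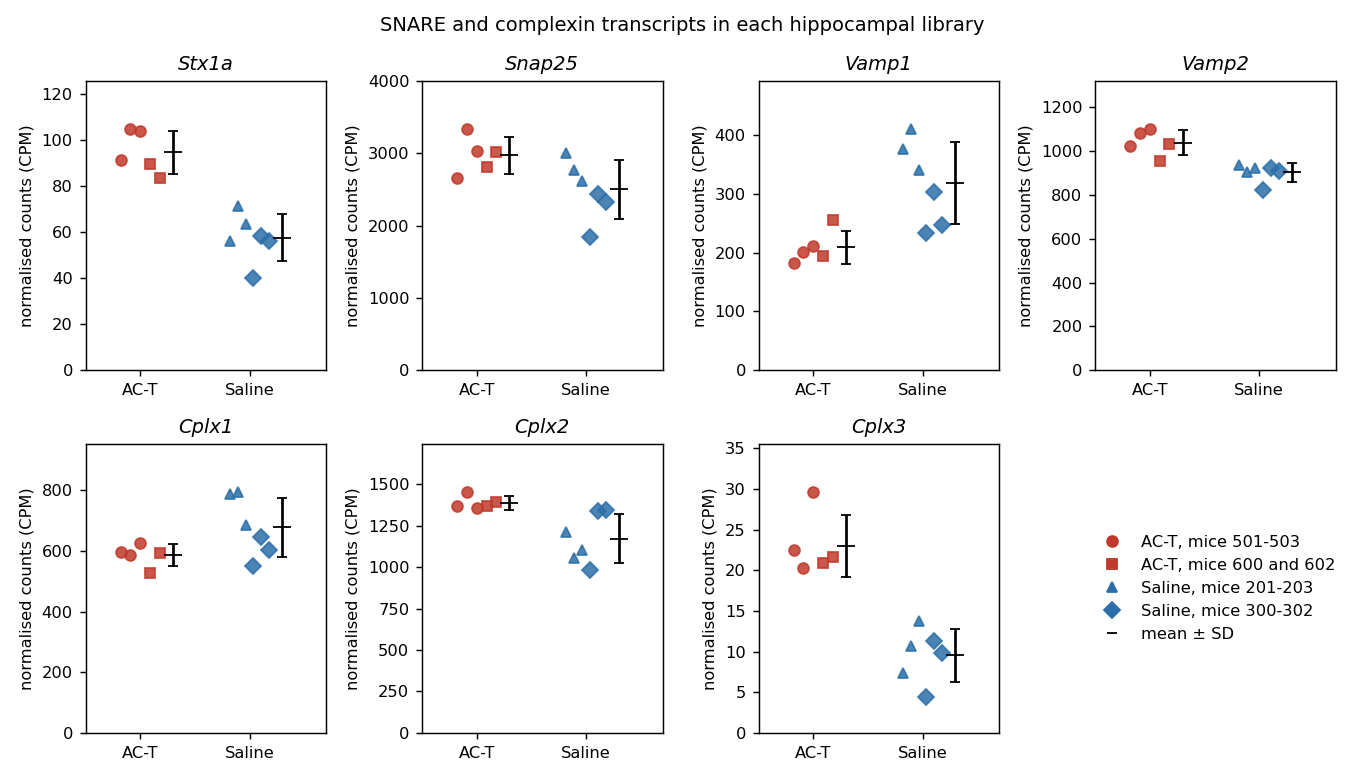
Normalised read counts (CPM, vertical axis from 0) of the 7 SNARE and complexin transcripts in each library, AC-T left of saline, with symbol shape for the series and bars for mean ± SD (n = 5 and 6). The 5 AC-T libraries lie above all 6 saline libraries for Stx1a, Vamp2, Cplx2 and Cplx3, and 4 of the 5 lie below all saline libraries for Vamp1.

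Levels were first ordered per kilobase of the longest annotated protein-coding transcript, since counts grow with length. Snap25 was highest, at 1404 ± 121 CPM per kilobase after AC-T and 1182 ± 190 after saline (SD, n = 5 and 6), followed by Vamp2 at 471 ± 25.5 after AC-T and 409 ± 19.1 after saline. Cplx2 (281 ± 8.07 after AC-T and 238 ± 30.5 after saline) and Cplx1 (267 ± 16.6 after AC-T and 310 ± 44.7 after saline) overlapped in range within each group, and their order turned between the groups. Vamp1 stood at 69.4 ± 9.21 after AC-T and 106 ± 23.4 after saline, and Stx1a at 43.7 ± 4.29 after AC-T and 26.6 ± 4.77 after saline. Cplx3 was lowest, at 8.03 ± 1.34 after AC-T and 3.34 ± 1.14 after saline. Apart from the complexins Cplx1 and Cplx2, neighbours in this order did not overlap in range in either group. With the median transcript length in place of the longest, Cplx1 lay above Cplx2 in every library, at 401 to 477 against 275 to 295 CPM per kilobase after AC-T and at 420 to 605 against 199 to 273 after saline, and Cplx1 then overlapped Vamp2 in saline.

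Syntaxin 1A, encoded by Stx1a, anchors the SNARE bundle in the plasma membrane and also binds calcium channels. Stx1a stood at 91.4, 104.6, 103.7, 89.3 and 83.4 CPM in AC-T 501, 502, 503, 600 and 602, against 56.0, 71.3, 63.3, 40.1, 58.3 and 56.2 CPM in saline 201, 202, 203, 300, 301 and 302. Every AC-T library was above every saline library, and the lowest value was in saline 300. Saline 300, the library with Xist at 0, also held the lowest saline value of each of the other members. The log2 fold change of Stx1a was 0.72 ± 0.12 (SE), 1.64-fold higher after AC-T, with an edgeR adjusted p of 0.00686. Groups that did not overlap were found for 4 of the 7 members, Stx1a, Vamp2, Cplx2 and Cplx3, and for 7.52% of all genes tested. Without saline 300 the log2 fold change of Stx1a was 0.62 ± 0.08 (adjusted p = 0.00480), and it passed on omission of each of the 11 libraries in turn (highest adjusted p = 0.0221, without AC-T 502). Without AC-T series 5, which leaves 2 AC-T libraries, it was 0.58 ± 0.17 and did not pass (adjusted p = 0.118).

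Snap25 encodes SNAP-25, the plasma membrane SNARE that contributes a pair of helices to the bundle and is the target of several botulinum toxins. It was the most abundant member, at 2657, 3334, 3028, 2813 and 3022 CPM in AC-T 501, 502, 503, 600 and 602. Saline 201, 202, 203, 300, 301 and 302 held 3006, 2769, 2619, 1841, 2441 and 2327 CPM. Of the AC-T libraries, 3 were above all saline libraries and the other two were within their range. The log2 fold change was 0.25 ± 0.11 (SE; edgeR adjusted p = 0.184). It was 0.08 ± 0.08 when saline series 3 was left out (adjusted p = 0.604) and 0.43 ± 0.11 without saline series 2 (adjusted p = 0.0642). Without saline 300 it was 0.17 ± 0.08 (adjusted p = 0.249).

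Vamp1 and Vamp2, which encode synaptobrevins 1 and 2 of the vesicle membrane, moved in opposite directions. Synaptobrevin 2 is the main vesicle SNARE of forebrain synapses, and synaptobrevin 1 is best known from motor nerve terminals and from subsets of brain neurons. Vamp1 stood at 183, 202, 211, 194 and 255 CPM in AC-T 501, 502, 503, 600 and 602, against 376, 410, 341, 233, 304 and 248 CPM in saline 201, 202, 203, 300, 301 and 302. All AC-T libraries but 602 were below every saline library, and saline series 2 was above saline series 3 without overlap. The log2 fold change of Vamp1 was −0.61 ± 0.15 (SE), at 0.656 of the saline level (edgeR adjusted p = 0.0301). The call was lost on omission of AC-T 501, 502, 503 or 600 or of saline 201, 202 or 203, with adjusted p values of 0.0514 to 0.0776, the highest without AC-T 502. Without saline 300 the log2 fold change was −0.69 ± 0.13 (adjusted p = 0.0180). Without saline series 2 it was −0.32 ± 0.12 and did not pass (adjusted p = 0.157), and without saline series 3 it was −0.85 ± 0.11 (adjusted p = 0.00324).

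Vamp2 stood at 1025, 1082, 1100, 956 and 1032 CPM in AC-T 501, 502, 503, 600 and 602. In saline 201, 202, 203, 300, 301 and 302 it was at 938, 903, 922, 820, 924 and 908 CPM. The groups did not overlap, although AC-T 600 lay just above saline 201. The log2 fold change was 0.20 ± 0.05 (SE), 1.15-fold higher (edgeR adjusted p = 0.0316), the smallest change among the members that passed. It lost the call on omission of AC-T 502, 503 or 602 or of saline 202, 203, 300 or 301, with adjusted p values of 0.0508 to 0.0795, the highest without AC-T 502. Without saline 300 it was 0.17 ± 0.05 (adjusted p = 0.0568).

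In these punches of mixed tissue, the ratio of Vamp1 to Vamp2 transcripts was lower after AC-T. The ratio of Vamp1 to Vamp2 was 0.178, 0.187, 0.192, 0.203 and 0.247 in AC-T 501, 502, 503, 600 and 602, and 0.401, 0.455, 0.370, 0.284, 0.329 and 0.273 in saline 201, 202, 203, 300, 301 and 302. No AC-T library reached the lowest saline ratio. The mean log2 ratio differed by −0.79 (exact permutation p = 0.00216, 2-sided, the smallest the test allows). Adjusted over the 4 paralogue ratios tested, of which 3 are reported, this p was 0.00289. Both genes had already passed, in opposite directions, in the same libraries, so the ratio test is not separate evidence. On omission of each library the difference ran from −0.87 to −0.71. Saline series 2 lay above saline series 3 in this ratio, without overlap. The difference was −0.55 without saline series 2 and −1.02 without saline series 3 (exact permutation p = 0.0179 for each). It was −0.63 without AC-T series 5 and −0.90 without AC-T series 6 (exact permutation p = 0.0357 and 0.0119). For each series left out, this p is the smallest that the remaining libraries allow, so these p values do not rank the fits. The test takes libraries as exchangeable, although no series holds both treatments. The ratio was not fitted together with the thalamic markers, which also differed between the groups.

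Complexins 1 and 2, encoded by Cplx1 and Cplx2, are close paralogues that clasp the SNARE bundle in most brain neurons. Cplx1 stood at 595, 586, 626, 526 and 593 CPM in AC-T 501, 502, 503, 600 and 602, and at 786, 794, 685, 551, 647 and 604 CPM in saline 201, 202, 203, 300, 301 and 302. The groups overlapped, and saline series 2 held the 3 highest values. Its log2 fold change was −0.21 ± 0.09 (SE; edgeR adjusted p = 0.188). Cplx2 stood at 1367, 1454, 1355, 1367 and 1393 CPM in AC-T 501, 502, 503, 600 and 602. Saline 201, 202, 203, 300, 301 and 302 held 1214, 1058, 1101, 982, 1338 and 1344 CPM, so the groups did not overlap, although AC-T 503 lay just above saline 302. The log2 fold change of Cplx2 was 0.24 ± 0.08 (adjusted p = 0.0895). The coefficient of variation between mice of Cplx2 was 2.87% after AC-T and 12.8% after saline. It was lower after AC-T for every member except Vamp2 (5.42% after AC-T and 4.66% after saline). These differences in spread were not tested, and the saline spread includes saline 300, the lowest saline library for every member. Neither complexin passed in edgeR, while Cplx2 passed in DESeq2 (adjusted p = 0.0431). Without saline series 3 both passed in edgeR, Cplx1 at −0.37 ± 0.07 and Cplx2 at 0.30 ± 0.05 (adjusted p = 0.0171 and 0.0153). Without saline series 2 neither did, with Cplx1 at −0.04 ± 0.07 and Cplx2 at 0.18 ± 0.10 (adjusted p = 0.810 and 0.317). Without saline 300 Cplx1 was at −0.27 ± 0.08 and Cplx2 at 0.19 ± 0.07 (adjusted p = 0.0790 and 0.150).

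The ratio of Cplx1 to Cplx2 was 0.435, 0.403, 0.462, 0.385 and 0.426 in AC-T 501, 502, 503, 600 and 602, against 0.647, 0.751, 0.623, 0.561, 0.484 and 0.450 in saline 201, 202, 203, 300, 301 and 302. AC-T 503 lay above saline 302, and all other AC-T libraries were below all saline libraries. The mean log2 ratio differed by −0.45 (exact permutation p = 0.0130, also 0.0130 adjusted over the 4 ratios), and by −0.24 without saline series 2 (exact permutation p = 0.0536).

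**Figure D2:**
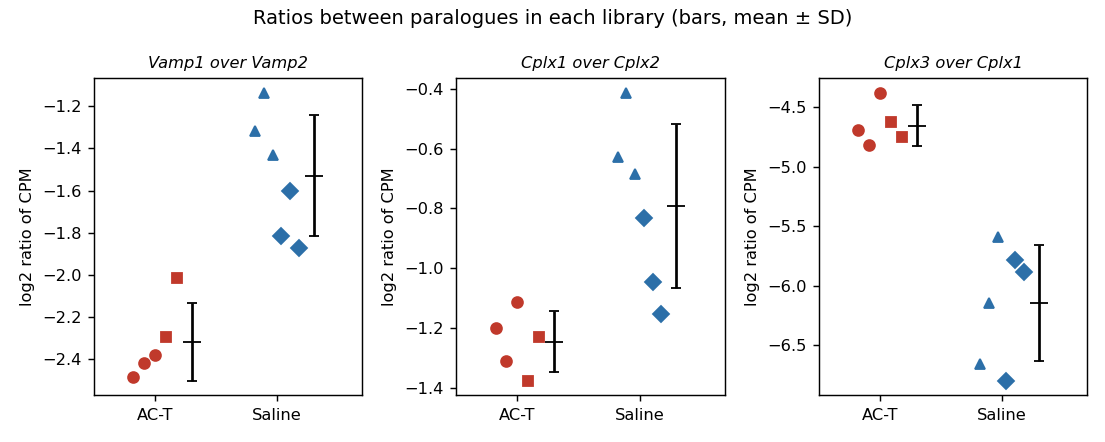
Log2 ratio of CPM between paralogues in each library (vertical axis), AC-T left of saline, with bars for mean ± SD (n = 5 and 6) and circles, squares, triangles and diamonds for series 5, 6, 2 and 3. The groups do not overlap for Vamp1 over Vamp2 and Cplx3 over Cplx1, and they overlap for Cplx1 over Cplx2.

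Complexin 3, encoded by Cplx3, is a membrane-anchored complexin known from retinal ribbon synapses and, in mouse cortex, from deep neurons that descend from the subplate. It was the least abundant member, with 586 to 891 counts after AC-T and 124 to 424 after saline. Cplx3 stood at 22.5, 20.3, 29.6, 20.8 and 21.6 CPM in AC-T 501, 502, 503, 600 and 602, against 7.31, 10.7, 13.7, 4.46, 11.3 and 9.77 CPM in saline 201, 202, 203, 300, 301 and 302. Every AC-T library exceeded every saline library, AC-T 503 was above the other AC-T libraries and saline 300 was lowest. Its log2 fold change was 1.26 ± 0.22 (SE), 2.40-fold higher (edgeR adjusted p = 0.00903), the largest change of the 7 and 1 of 59 calls of at least 2-fold among all genes. Without AC-T 503 it was 1.15 ± 0.23 (adjusted p = 0.0203), and without saline 300 it was 1.11 ± 0.16 (adjusted p = 0.00544). It passed on omission of each of the 11 libraries (highest adjusted p = 0.0229, without AC-T 602), but not without AC-T series 5 (1.14 ± 0.32; adjusted p = 0.106).

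Against Cplx1, the ratio of Cplx3 was 0.0346 to 0.0473 after AC-T and 0.00810 to 0.0201 after saline, without overlap. The mean log2 ratio differed by 1.49 (exact permutation p = 0.00216, the smallest the splits allow; 0.00289 adjusted over the 4 ratios). The ratio combines changes of opposite sign, with a log2 fold change of 1.26 for Cplx3 and of −0.21 for Cplx1, which did not pass. Since Cplx3 had already passed in the same libraries, the ratio test is not separate evidence. Per kilobase Cplx3 remained the lowest complexin in both groups.

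The members that passed were set beside the thalamic score of each library, the mean log2 CPM of the 16 thalamic and habenular markers. It averaged 5.10 ± 0.26 in AC-T libraries and 6.16 ± 0.33 in saline libraries (SD, n = 5 and 6), and the groups did not overlap. Among saline libraries, series 3 had scores of 5.76 to 5.96 and 233 to 304 CPM of Vamp1, while series 2 had scores of 6.36 to 6.60 and 341 to 410 CPM of Vamp1. Stx1a overlapped between the saline series, at 40.1 to 58.3 CPM in series 3 and 56.0 to 71.3 CPM in series 2. So did Cplx3, at 4.46 to 11.3 CPM in series 3 and 7.31 to 13.7 CPM in series 2. Vamp2 overlapped too, at 820 to 924 CPM in series 3 and 903 to 938 CPM in series 2.

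**Figure D3:**
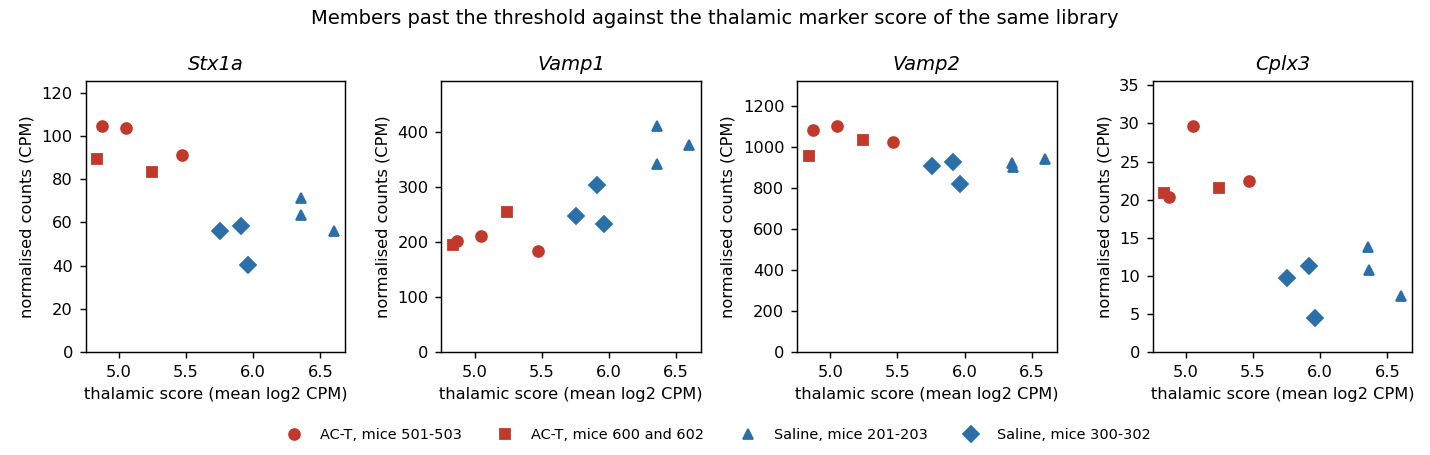
Normalised read counts (CPM, vertical axis from 0) of the 4 members that passed against the thalamic score (mean log2 CPM of 16 markers, horizontal axis) of the same library, AC-T in red and saline in blue, with symbol shape for the series. AC-T scores run from 4.84 to 5.47 and saline scores from 5.76 to 6.60, so no AC-T library has the score of a saline library.

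With the thalamic score as a covariate 0 of 7 members passed in edgeR and 4 had an unadjusted p under 0.05, in a fit in which 0.00651% of all genes, 1 of 15353, passed and 7.72% had an unadjusted p under 0.05. The log2 fold change was then 1.43 ± 0.53 for Cplx3, 0.86 ± 0.28 for Stx1a and 0.27 ± 0.11 for Vamp2 (SE; edgeR adjusted p = 0.642 for each). For Vamp1 it was 0.04 ± 0.28 (adjusted p = 0.979), and for Cplx1 0.23 ± 0.16 (adjusted p = 0.742). Snap25 was at 0.55 ± 0.24 (adjusted p = 0.644) and Cplx2 at 0.08 ± 0.17 (adjusted p = 0.918). Estimates of Cplx3, Stx1a, Vamp2 and Snap25 were thus at least as large as without the covariate, that of Cplx2 was smaller, and those of Vamp1 and Cplx1 changed sign, all with wider errors. Since the score did not overlap between the groups, treatment and score cannot be told apart in these libraries.

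Comparisons between series placed the same values against the spread within a treatment. Between the saline series 0 of 7 members passed in edgeR, and 3 had an unadjusted p under 0.05 (Vamp1, Cplx1 and Snap25), where 1.03% and 20.1% of all genes did. Vamp1 was −0.52 ± 0.13 (log2, series 3 over series 2; adjusted p = 0.0793) and Cplx1 −0.33 ± 0.08 (adjusted p = 0.0803). Between the AC-T series 0 of 7 passed and 0 had an unadjusted p under 0.05, where 0.117% and 13.5% of all genes did. Against saline series 2, AC-T series 5 differed by −0.92 ± 0.13 for Vamp1, 0.65 ± 0.14 for Stx1a, 1.18 ± 0.31 for Cplx3 and −0.33 ± 0.08 for Cplx1, and all 4 passed (adjusted p = 0.00405, 0.0199, 0.0449 and 0.0375; 8.92% of all genes passed). Against saline series 3 it differed by 0.95 ± 0.14 for Stx1a, 1.50 ± 0.31 for Cplx3 and 0.27 ± 0.06 for Vamp2, and these passed (adjusted p = 0.0159, 0.0389 and 0.0429; 3.61% of all genes), while Vamp1 at −0.40 ± 0.13 did not (adjusted p = 0.0970). AC-T series 6 holds 2 libraries. Against saline series 2 it passed for Vamp1 and Cplx1 (log2 −0.74 ± 0.15 and −0.43 ± 0.09; adjusted p = 0.0196 and 0.0256; 7.07% of all genes), and against saline series 3 for Stx1a (0.74 ± 0.15; adjusted p = 0.0365; 3.39%). These comparisons share libraries.

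**Figure D4:**
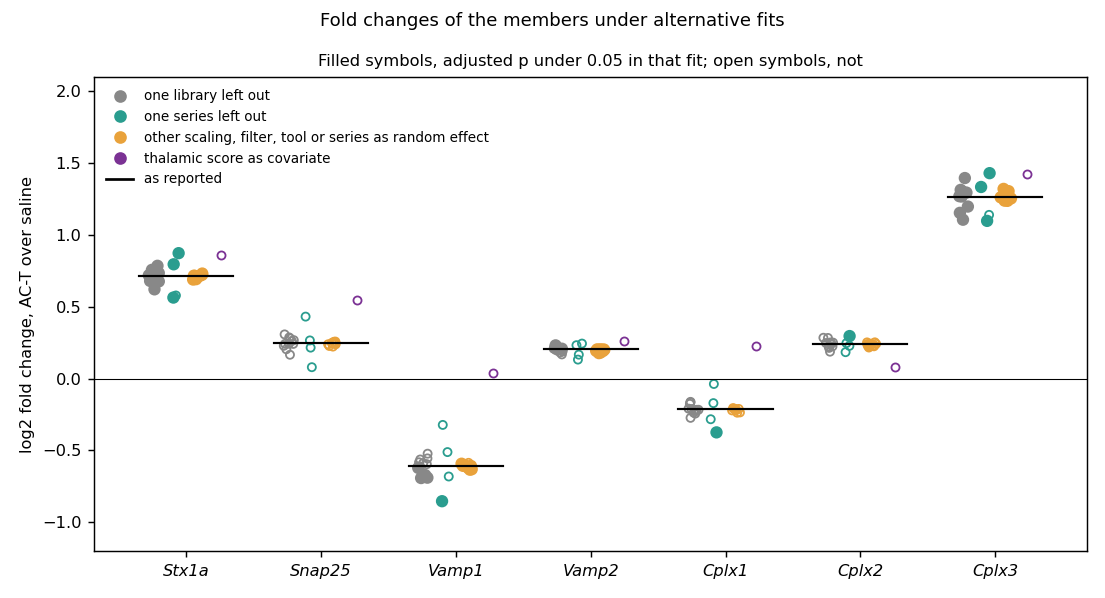
Log2 fold change, AC-T over saline (vertical axis), of each member in 26 alternative fits grouped by kind, with the reported value as a black line. Filled symbols have an adjusted p under 0.05 in that fit. Stx1a and Cplx3 are positive in every fit shown, at 0.56 to 0.87 and 1.10 to 1.43, whereas Vamp1 runs from −0.85 to 0.04.

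The wider machinery was read from a list of 44 genes that load, chaperone, trigger or take apart SNAREs, of which 42 were in the table and tested. Of these 5 rose and 3 fell, 19.0%, with a median log2 fold change of 0.08, beside 8.47% called and a median of −0.0029 over all genes. This list too was chosen with earlier results of these data known, and its share was not tested. The other SNAREs, 11 genes that include syntaxins 2, 3, 4 and 16, SNAP-23, SNAP-29, SNAP-47 and VAMP3, VAMP4 and VAMP8, had 0 called in edgeR, 2 with an unadjusted p under 0.05, and log2 fold changes of −0.18 to 0.13. The 4 genes of SNARE disassembly, the ATPase Nsf and its adaptors, had 0 called and 2 with an unadjusted p under 0.05. Nsf averaged 912 ± 97.9 CPM after AC-T and 794 ± 108 CPM after saline (log2 0.20 ± 0.10 SE; edgeR adjusted p = 0.246). The 5 SNARE chaperones also had 0 called in edgeR, with 1 under an unadjusted p of 0.05.

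Calcium sensors moved both ways, with 2 higher and 1 lower of 10. Syt1, the fast calcium sensor of forebrain synapses, averaged 1259 ± 117 CPM after AC-T and 999 ± 119 CPM after saline and rose by 0.33 ± 0.09 (log2, SE; edgeR adjusted p = 0.0395), but the call was lost in 9 of the 11 omissions (adjusted p up to 0.103, without AC-T 502). Syt5, another vesicle synaptotagmin, stood at 106 ± 8.80 CPM after AC-T and 76.9 ± 6.80 CPM after saline and rose by 0.46 ± 0.07 (adjusted p = 0.00454), without overlap. Syt9, a synaptotagmin that acts as a fast sensor in some mouse neurons, averaged 14.7 ± 3.47 CPM after AC-T and 31.7 ± 9.88 CPM after saline and fell by 1.10 ± 0.22 on the log2 scale (adjusted p = 0.0138). The Syt9 call was lost with series as a random effect in limma-voom (adjusted p = 0.0769), and in edgeR without AC-T series 5 (0.145) or saline series 2 (0.0716).

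Of 6 priming and tethering factors, which ready docked vesicles for fusion, 2 rose and 2 fell. Cadps2, which primes dense-core vesicles, averaged 70.2 ± 4.78 CPM after AC-T and 40.2 ± 10.2 CPM after saline. It rose by 0.80 ± 0.16 (log2, SE, with an edgeR adjusted p of 0.0130). The Cadps2 call was lost without AC-T series 5 or 6 (edgeR adjusted p = 0.108 and 0.0650). Its log2 fold change was 0.53 without saline series 2 and 1.14 without saline series 3. Unc13b, which encodes Munc13-2, rose by 0.23 ± 0.06 (adjusted p = 0.0452), but the call was lost in 10 of the 11 omissions (adjusted p up to 0.0940, without AC-T 501). Unc13c, which encodes Munc13-3, stood at 66.3 ± 27.5 CPM after AC-T and 145 ± 36.0 CPM after saline and fell by 1.13 ± 0.26 on the log2 scale (adjusted p = 0.0254; 0.0713 without AC-T 502, and lost also without AC-T 501, 600 or 602). Baiap3, a Munc13 relative of dense-core vesicles, averaged 11.4 ± 2.63 CPM after AC-T and 28.5 ± 13.0 CPM after saline and fell by 1.32 ± 0.32 on the log2 scale (adjusted p = 0.0287; lost in 7 of the 11 omissions, with up to 0.0791 when AC-T 502 was left out). Unc13a, which encodes Munc13-1, the main priming factor of forebrain synapses, was at 0.18 ± 0.08 (adjusted p = 0.176).

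Of 6 genes for Sec1/Munc18 proteins, tomosyns and the syntaxin-binding protein of Stxbp6, which hold syntaxin or compete for it, 1 rose. Stxbp6 is also on the dentate marker list. Stxbp5l, a tomosyn, averaged 32.1 ± 4.19 CPM after AC-T and 23.2 ± 4.26 CPM after saline (log2 0.46 ± 0.13 SE; edgeR adjusted p = 0.0484), and the call was lost in 8 of the 11 omissions (adjusted p up to 0.116, without AC-T 502). Without saline 300 the partners that passed were Syt5, Cadps2, Syt9 and Unc13c, while Syt1, Unc13b, Baiap3 and Stxbp5l did not (edgeR adjusted p of 0.0540 to 0.0741). With the thalamic score as covariate 0 of the 42 passed in edgeR and 7 had an unadjusted p under 0.05, where 7.72% of all genes did. In that fit Cadps2 had a log2 fold change of 0.11 ± 0.25 (SE), Baiap3 of −0.17 ± 0.70, Unc13c of −0.57 ± 0.56 and Syt9 of −0.68 ± 0.46. It was 0.27 ± 0.15 for Syt5, 0.49 ± 0.20 for Syt1, 0.13 ± 0.13 for Unc13b and −0.13 ± 0.21 for Stxbp5l.

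**Figure D5:**
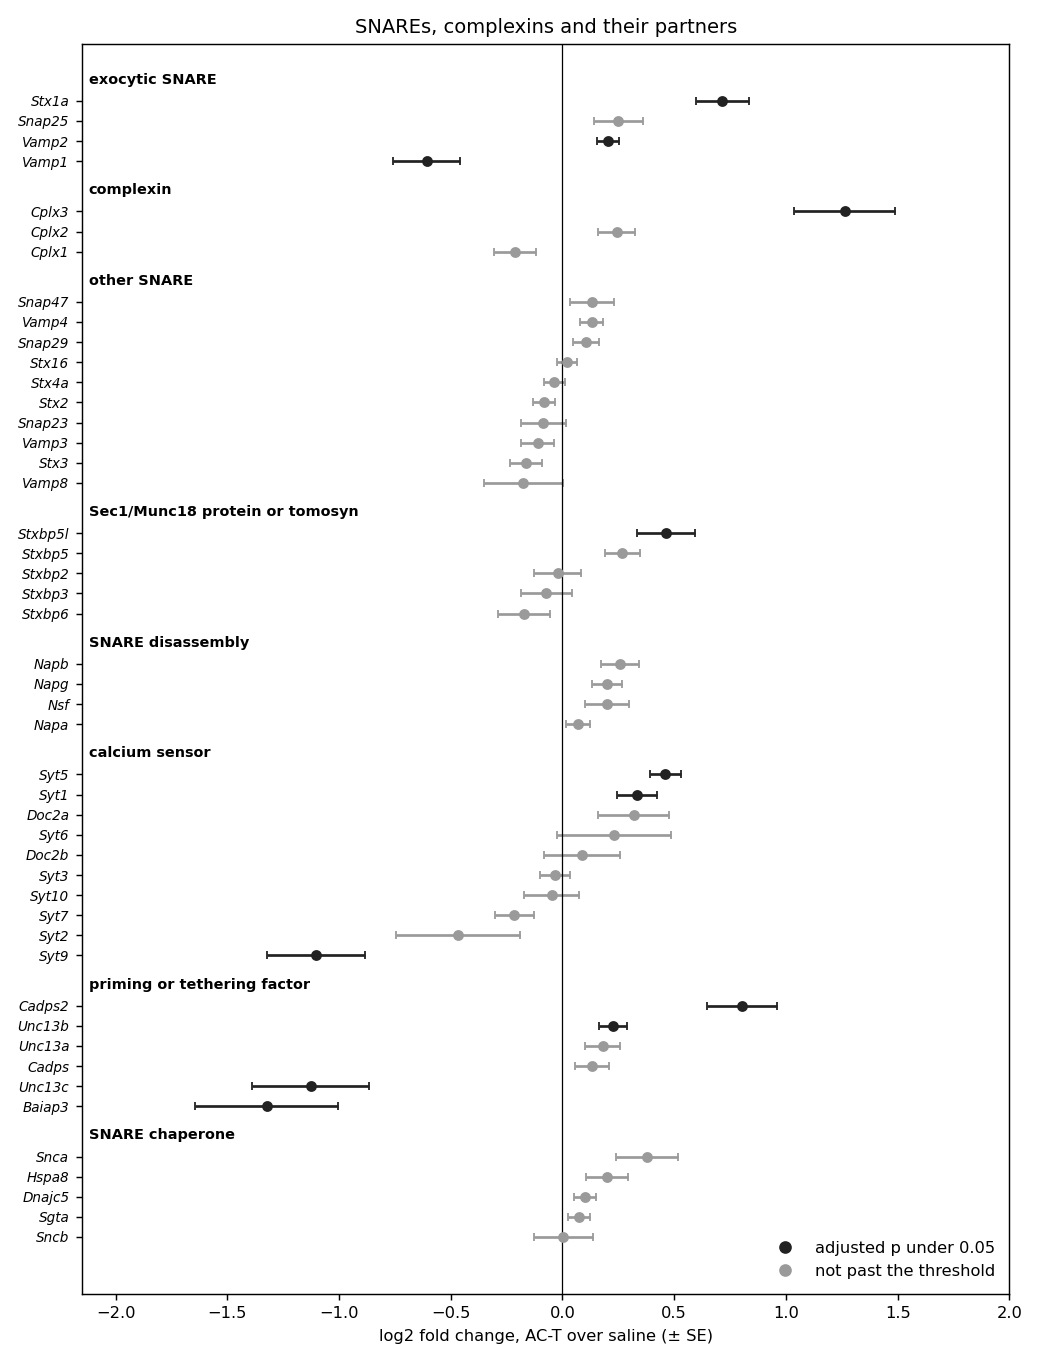
Log2 fold change, AC-T over saline, ± SE (horizontal axis) of the 7 members and of 40 of the 42 partner genes grouped by role, in black where the adjusted p was under 0.05. The other SNAREs lie between −0.18 and 0.13, while the members run from −0.61 for Vamp1 to 1.26 for Cplx3.

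Genes with the most similar profile to each member were taken by the root mean square difference of centred log2 CPM over the 11 libraries, among 12588 genes. Nearest to Cplx3 were Cckbr, the cholecystokinin B receptor, and the transcription factor gene Tbr1 of glutamatergic cortex, both with a difference of 0.27, against 0.75 for the spread of Cplx3 itself. Tbr1 is also on the neocortical marker list. Nearest to Stx1a were Etl4 (0.13) and Serpini1, which encodes the protease inhibitor neuroserpin (0.14), against a spread of 0.42. Nearest to Vamp1 were Kcnab3, a potassium channel beta subunit, and Nefh, the heavy neurofilament chain, both at 0.12 against a spread of 0.38. Snap25 lay nearest to Sh3gl2 (0.042), which encodes the endocytic protein endophilin A1, and to Ywhah (0.048), a 14-3-3 protein, against a spread of 0.22. Vamp2 lay nearest to Rab6b, a small GTPase (0.035), and Arhgap1 (0.039), against 0.12. Cplx1 lay near Clec2l (0.062), and Cplx2 nearest to Arf3, a small GTPase (0.062), and Lrfn2, a synaptic adhesion protein (0.062), against spreads of 0.18 each. Of these genes, Cckbr, Tbr1, Etl4, Serpini1, Nefh, Arhgap1, Arf3 and Lrfn2 passed the edgeR test themselves (adjusted p of 0.0481 or less). Over all genes tested 8.47% passed. The profiles compared include the difference between the groups, so genes near a called member tend to pass by selection, and these calls are not separate evidence.

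Read sharing between paralogues was checked on annotated transcripts of build GRCm38, because the quantifier divides ambiguous reads. Of the distinct 31-base words in protein-coding transcripts, 0 of 2159 in Stx1a, 0 of 4127 in Vamp1 and 0 of 2826 in Vamp2 also occurred on the same strand in transcripts of another gene. Cplx1 shared 2 of 2188, both with Cplx2. Cplx2 shared 76 of 4735, Snap25 18 of 2200 and Cplx3 12 of 2938. In this annotation Vamp1 overlaps 3 genes on the opposite strand, among them Tapbpl and Cd27. Libraries were stranded, but the strand setting of the quantification is not given in the sources used here.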

How the data were processed

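Stranded polyadenylated RNA libraries of hippocampal punches were sequenced on a NextSeq 2000. Per the submitters' processing notes and the series' design text, base calls were converted with Dragen 4.3.6, quality was checked with FastQC 0.11.9, transcripts were quantified with Salmon 1.9.0, and GRCm39 is named as the build; the annotation release is not given in the sources used here. The deposited table holds the authors' expected counts (13.7% to 14.7% of values per library have a fraction), rounded here to whole numbers. Groups and series were read from the labels. No pair of libraries was identical.

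All genes above a low-count filter (filterByExpr, minimum count 10) were fitted with TMM factors and tested by the quasi-likelihood F test of edgeR 4.0.16 (R 4.3.3), with DESeq2 1.42.0 and limma 3.58.1 as alternatives and a check on simulated data. SEs were derived from the F statistic. Ratios used log2(CPM + 0.5) and the exact permutation test over libraries. Depth was 23.4 to 32.1 M counts per library. Members and lists were chosen with earlier results of these data known. Named genes are the members, partners that passed, Nsf, Syt1 and Unc13a, and the 2 nearest genes per member; some results under this rule are not reported here. Although 6 mice a group are stated, the AC-T group has 5 libraries here. Transcript lengths came from GENCODE on GRCm38 and promoters from RefSeq.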

Additional observations from a re-analysis of the deposited data

Results flagged for a closer look

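In 40 groups of libraries (17 named genes and 3 ratios in each treatment), 3 held a library far from the others, where chance gives about 1 in 20. Cplx3 was at 29.6 CPM in AC-T 503, above 20.3 to 22.5 CPM in the other AC-T libraries. Syt5 was at 121 CPM in AC-T 502, above 99.4 to 104 CPM in the other AC-T libraries. Vamp2 was at 820 CPM in saline 300, below 903 to 938 CPM in the other saline libraries. Saline 300 is the library with Xist at 0.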

How the results depend on the processing

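No paired analysis was possible because the mouse numbers are not shared between the groups. Among 26 alternative fits, Stx1a and Cplx3 lost the call in 2 (thalamic covariate, without AC-T series 5), Vamp1 in 11 (and turned in 1 more) and Vamp2 in 13. The counts reported are 4 members, 8 partners and 1301 genes. With the thalamic score as covariate they were 0, 0 and 1 in edgeR (4, 7 and 1186 at an unadjusted p under 0.05), with series as a random effect (limma-voom) 2, 2 and 293, without AC-T series 5, 0, 0 and 317 (2, 11 and 3138 unadjusted), without AC-T series 6, 2, 2 and 409, and without saline series 2, 2, 5 and 549. At an adjusted p of 0.01 they were 2, 1 and 228; at 0.1, 2295 genes passed, and in DESeq2 2512. With library totals 5 partners passed and 2 members differed between the saline series. Omitting each library gave 2 to 4 members, 3 to 7 partners and 625 to 1229 genes; the count over all genes was over 1.5 times smaller without AC-T 502 (625) or 602 (681) or saline 202 (815) or 300 (832). With that omission the log2 ratio difference ran from −0.87 to −0.71 for Vamp1 over Vamp2, −0.53 to −0.38 for Cplx1 over Cplx2 and 1.36 to 1.60 for Cplx3 over Cplx1. Cplx1 over Cplx2 missed the threshold without AC-T series 5 (−0.51; exact permutation p = 0.0714), AC-T series 6 (−0.41; 0.0595) and saline series 2 (−0.24; 0.0536). Signs turned for Vamp1 (0.038), Cplx1 (0.23) and Stxbp5l (−0.13) with the thalamic covariate. The split of calls over all genes was 751 higher and 550 lower, and with upper-quartile factors 593 and 663 and with library totals 487 and 548. The cause of these changes was not tested. Of the members, Cplx3 had the fewest counts, 124 in its lowest library.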
